A study of Rattus norvegicus with 6 samples.

Results

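A stretch of 2980 nt on the minus strand of rat chromosome 2 (rn6, chr2:29675461-29678440) carried 79 of the 12583 SYNCRIP peaks in the deposited lists of 3 libraries. Members are the peaks that lie wholly inside these bounds on that strand, 30 of 5687 in replicate 1, 24 of 4163 in replicate 2 and 25 of 2733 in replicate 3. Peaks of different lists that overlap by at least 1 bp were merged, which gave 32 regions of the 7023 in the whole data set. The stretch had been picked from these same lists for the many regions that the libraries share, so the number, the position and the sharing of its peaks are described here and not tested. Neither bases nor gene models of rn6 were used here, so the members are named by position, no gene is assigned to them, and no bases are printed.

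The study mapped RNA contacts of SYNCRIP in primary cortical neurons of Sprague-Dawley rats after 6 days in culture, on cytoplasmic RNA of cells exposed to UV-C light at 300 mJ/cm2. All 6 libraries come from such neurons, 3 precipitated with an anti-hnRNPQ antibody and 3 with an IgG1 isotype antibody, and the submitters call the replicates biological. Values of the IgG libraries were not at hand and were not used here. Every value is that of a deposited SYNCRIP list, and no background was subtracted from it or set beside it here. The labels name no genotype other than the strain and no treatment other than the light.

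SYNCRIP, also named hnRNP Q, is a protein with several RNA recognition motifs that is found in both nucleus and cytoplasm. In neurons it is known as a component of RNA granules that travel along dendrites, and it has been linked to the stability and the translation of messenger RNAs and to neurite growth. In iCLIP, ultraviolet light joins a protein to the RNA it touches, and reverse transcription of the purified fragments tends to stop at the joined base, so that read ends pile up at contact sites. A peak caller then keeps the bins in which the pile is higher than its model of the background.

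Each list entry has a start, an end and a whole-number score on a grid of 20-nt bins. What the score counts is not given in the sources used here, so it is used only to rank a peak within its own list, as a percentile from 0 to 100. Scores of different lists are printed side by side to show the data and not to compare their size. The lists differ in length, sequencing depth is unknown, and a region missing from the shortest list is not shown to lack contact in that library. The lists were also not written independently of each other. In each of them the 815 peaks with identical coordinates in all lists stand first and in the same rows, and 7 of the 32 regions here are made of such peaks. The whole data set has 815 such peaks per list and 7023 regions, and nothing is read from the number here. Peaks of the stretch with identical coordinates in only 2 lists also stood in the same order in both. Which step produced that order was not given, and its part in the sharing was not tested.

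Positions along the RNA are counted from the 5′ end of the stretch, in the direction of the minus strand as the lists give it, so that nt 1 is base 29678440 and nt 2980 is base 29675461. Peaks were spread over the whole length, and the share of the length they covered was highest in its 3′ part. Peaks covered 1520 nt (51.0%) in replicate 1, 1360 nt (45.6%) in replicate 2 and 1140 nt (38.3%) in replicate 3, a mean of 45.0% ± 6.40 (SD, n = 3). The order of these values follows the length of the lists. As a share of the list, the cluster was smallest in replicate 1, with 0.528% (95% Wilson interval 0.370 to 0.752), and largest in replicate 3, with 0.915% (0.620 to 1.35). Replicate 2 had 0.577% (0.388 to 0.856), and the 3 intervals overlap. They cover counting error only and treat neighbouring peaks as independent. The members made up 11.7%, 12.2% and 18.2% of all minus-strand peaks of chromosome 2 in replicates 1, 2 and 3. No list had a peak on the plus strand inside the stretch.

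**Figure D1:**
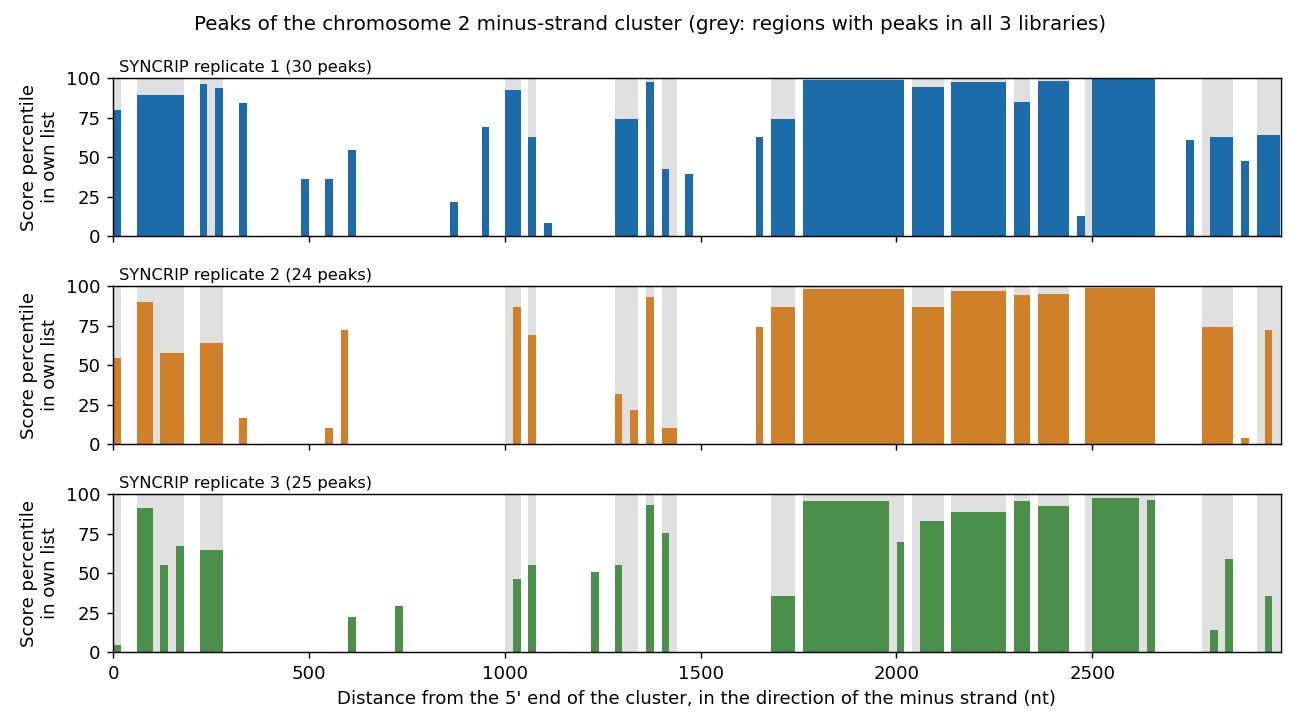
Peaks of each SYNCRIP library along the cluster; the horizontal axis gives the distance from its 5′ end in nt, each bar spans 1 peak and its height is the percentile of the score within that library's own list. Grey bands are the 17 regions with peaks in all 3 libraries; wide, high-ranking bars fill most of the stretch between nt 1641 and 2660 in all 3 libraries.

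Of the 32 regions, 17 (53.1%) had peaks in all 3 libraries and are called shared below, and 22 (68.8%) had peaks in at least 2. Over all 7023 regions these shares were 24.9% and 48.2%. The stretch was chosen for this property, so nothing is read from the contrast. The counts also depend on the rule: 9 regions were shared when a score had to reach 1.5 times the minimum of its list, 8 when peaks up to 20 nt apart were joined and 7 when coordinates had to be identical, with 22, 14 and 52 regions in all. Another 4 regions joined replicates 1 and 2, 1 joined replicates 1 and 3, and none joined replicates 2 and 3 alone. Of the 10 regions seen once, 7 came from the longest list, that of replicate 1, and 1 and 2 from those of replicates 2 and 3. All 15 regions that were not shared were a single bin wide, whereas 14 of the 17 shared regions were wider than 1 bin and the widest reached 260 nt. Merging over lists widens a shared region, and wide peaks overlap more readily, so width and sharing are not separate measures here.

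Bin by bin, 66 of the 149 bins of the stretch (44.3%) held no peak in any list and 53 (35.6%) held one in all 3. Only 12 bins were occupied in 2 libraries and 18 in 1. Of the 83 bins occupied at all, the 53 in common make up 63.9%. Of the bins of replicate 3, 94.7% were occupied in replicate 1 and the same share in replicate 2. In the other direction, 71.1% of the bins of replicate 1 and 79.4% of those of replicate 2 were occupied in replicate 3. Between replicates 1 and 2, 82.9% of the bins of the former and 92.6% of those of the latter were in common. Bins that a single library occupied numbered 12 in replicate 1, 4 in replicate 2 and 2 in replicate 3.

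The middle of the 3′ part was densely covered, with short gaps between regions. From nt 1641 to nt 2660 (chr2:29675781-29676800), 9 regions, 7 of them shared, followed each other with gaps of at most 1 bin. This stretch of 1020 nt, singled out after the values were seen, is 34.2% of the cluster. It was picked as the run of regions with gaps of at most 20 nt that holds the most regions. Its short gaps, and in part its high coverage, therefore follow from the choice and are a description only. Peaks covered 84.3% of the dense stretch in replicate 1, 84.3% in replicate 2 and 74.5% in replicate 3, against 33.7%, 25.5% and 19.4% of the remaining bins. In it, 38 of 51 bins were occupied in all 3 libraries (74.5%), compared with 15 of the other 98 (15.3%). The 7 bins of the dense stretch that were empty in every list were isolated from one another, each a gap of 20 nt between peaks. A gap of 20 nt is the shortest that the lists hold, since adjoining bins of a list form 1 peak. The lists differed in their own gaps there, with 8, 7 and 9 empty runs in replicates 1, 2 and 3, the longest of 20, 40 and 60 nt.

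In segments of 500 nt, mean coverage ran from 10.7% to 73.3% along the RNA, and the SD within a segment was 4.62 to 12.7 percentage points (n = 3). The first segment, nt 1 to 500, was covered to 44.0%, 40% and 32.0% in replicates 1, 2 and 3. The next, nt 501 to 1000, was the sparsest, with 16.0%, 8.0% and 8.0%. It held 6 regions, none of them shared, and 19 of its 25 bins were empty in every list. Coverage then was 40%, 28.0% and 24.0% from nt 1001 to 1500 and 64.0%, 64.0% and 56.0% from nt 1501 to 2000. It was highest from nt 2001 to 2500, with 76.0%, 76.0% and 68.0%, where 17 of 25 bins were occupied in all 3 libraries. In the last 480 nt it was 66.7%, 58.3% and 41.7%. The sparsest segment lay below each of the others in every library, and the values of the segments from nt 1501 to 2000 and from nt 2501 to 2980 overlap.

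**Figure D2:**
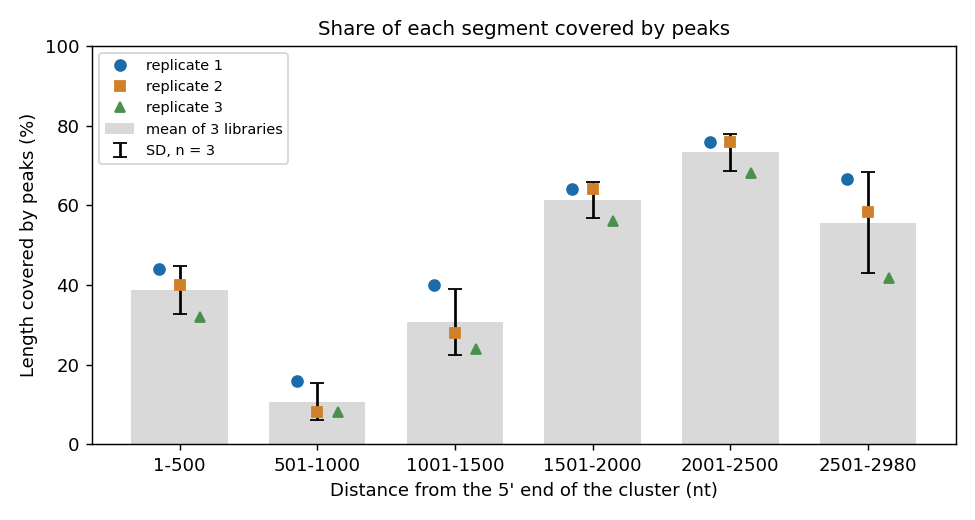
Percentage of each segment of the cluster covered by peaks (vertical axis) against the distance from the 5′ end in nt (horizontal axis). Grey bars are means of 3 libraries with the SD, and symbols are single libraries; nt 501 to 1000 is the lowest segment in each library, at 8.0% to 16.0%, and nt 2001 to 2500 the highest, at 68.0% to 76.0%.

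The region ranked first by the mean percentile of its score over the 3 libraries lay at nt 2481 to 2660 (chr2:29675781-29675960), near the 3′ end of the dense stretch. It scored 243 in replicate 1, 147 in replicate 2 and 84 in replicate 3, which placed it 43rd, 46th and 68th in the full lists and first of the cluster in each. Replicate 1 had 1 peak of 160 nt there and replicate 2 had 1 of 180 nt. Replicate 3 had 2 peaks that covered 140 nt and were separated by 1 bin. For regions with several peaks in a list, the highest score is given.

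The next was the widest region of the cluster, 260 nt at nt 1761 to 2020 (chr2:29676421-29676680). Its scores were 213, 136 and 71 in replicates 1, 2 and 3, and its ranks 58, 64 and 107. Replicates 1 and 2 had the same unbroken peak of 260 nt, and replicate 3 had 2 peaks covering 240 nt. Only 18 of the 6908 nuclear regions of the data set, this one included, were at least that wide. Another pair of regions of the dense stretch had ranks 3 and 5 in the cluster. The region at nt 2361 to 2440 (chr2:29676001-29676080) scored 175, 89 and 58, and that at nt 2141 to 2280 (chr2:29676161-29676300) scored 159, 104 and 48. Both had identical ends in the 3 lists.

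The other named regions of the dense stretch lay between and beside these. At nt 2301 to 2340 (chr2:29676101-29676140) the scores were 74, 86 and 71, or percentiles of 84.7, 94.6 and 96.0. Here replicate 1 gave the lowest percentile of the 3 libraries. At nt 2041 to 2120 (chr2:29676321-29676400) the scores were 110, 62 and 42. In all, 6 of the 10 highest-ranked regions of the cluster lay in the dense stretch. Only shared regions were ranked, and the dense stretch holds 7 of those 17.

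A single-bin region ranked high 5′ of it. The region at nt 1361 to 1380 (chr2:29677061-29677080) was 1 bin wide in every list and scored 142, 77 and 59, above the 90th percentile each time (97.3, 92.9 and 93.2). The remaining named regions were nt 61 to 180 (chr2:29678261-29678380), nt 221 to 280 (chr2:29678161-29678220) and nt 1001 to 1040 (chr2:29677401-29677440). The first of these scored 85, 69 and 54, with percentiles of 89.3, 90.3 and 91.3. It was 1 peak in replicate 1, 2 peaks in replicate 2 and 3 peaks in replicate 3. The region at nt 221 to 280 scored 124, 41 and 31, with percentiles of 96.1, 64.0 and 65.0, so that its high place rests on replicate 1. The region at nt 1001 to 1040 scored 97, 62 and 26 and was high in replicates 1 and 2 (92.4 and 87.1) but not in replicate 3 (46.4).

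In 6 of the 17 shared regions the percentiles of the 3 libraries lay within 10 points of each other, and 4 regions were above the 90th percentile in every list. Percentiles end at 100, so a high mean over the 3 lists leaves little room for a difference. In 3 regions they were more than 50 points apart. The widest difference was at the 5′ edge, nt 1 to 20 (chr2:29678421-29678440), where the same bin scored 66, 37 and 20, or percentiles of 79.7, 54.4 and 4.70. The score of 20 is the lowest that replicate 3 holds. At nt 1401 to 1440 (chr2:29677001-29677040) replicate 3 was highest (75.8) and replicate 2 lowest (10.4), and at nt 1681 to 1740 (chr2:29676701-29676760) replicate 2 was highest (87.1) and replicate 3 lowest (35.5). At the 3′ edge, nt 2921 to 2980 (chr2:29675461-29675520), the scores were 52, 46 and 24. Over the 17 shared regions, Spearman's rho of the scores was 0.79 between replicates 1 and 2, 0.66 between 1 and 3 and 0.75 between 2 and 3. These correlations run across sites that share each library and the width of the peaks, and they are a description only.

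**Figure D3:**
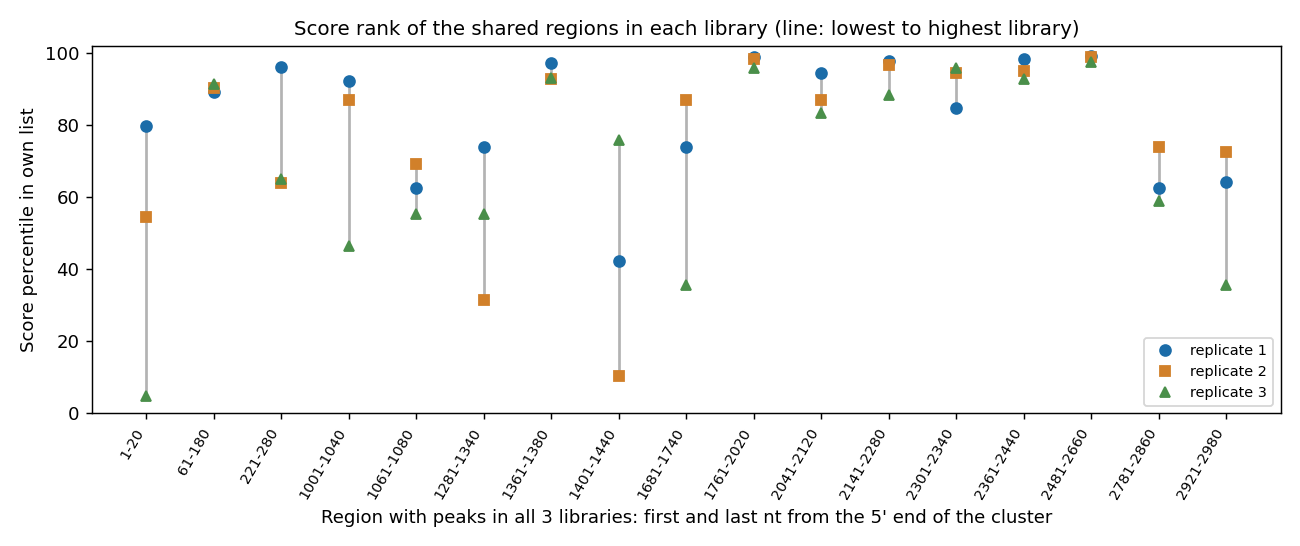
Percentile of the highest score within each library's own list (vertical axis) for the 17 shared regions, in order from the 5′ end with their first and last nt (horizontal axis); lines join the lowest and the highest library. The regions at nt 61 to 180, 1361 to 1380, 1761 to 2020 and 2481 to 2660 differ little between libraries, and those at nt 1 to 20, 1401 to 1440 and 1681 to 1740 differ by more than 50 points.

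Taken over all members, scores were above the middle of each list. The lowest, median and highest scores of the cluster were 33, 57.0 and 243 in replicate 1, 26, 46.5 and 147 in replicate 2, and 20, 31.0 and 84 in replicate 3. The median member stood at percentile 71.4, 73.3 and 65.0 of the respective lists. Above the 90th percentile were 9 of 30, 7 of 24 and 7 of 25 members, where the full lists have 10.0%, 9.94% and 10.0% of their peaks. Below the list's median were 8, 6 and 7 members. Wider peaks had higher scores, with Spearman's rho between width and score of 0.64, 0.63 and 0.54 in the cluster and 0.35, 0.36 and 0.34 in the full lists. Among peaks of a single bin, the median member of the cluster stood at percentile 65.5, 69.5 and 63.0 of the single-bin peaks of its list. Regions seen in a single library had percentiles from 7.97 to 72.5 with a median of 37.5. The mean percentiles of the shared regions ran from 42.8 to 98.5 with a median of 75.3. The former are single values and the latter are means over 3 lists of the highest peak. A score also bears on whether a peak enters the other lists, so nothing is read from this difference. The stretch was chosen for its shared regions, so nothing is read from the ranks of its members against the full lists.

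The share of peaks wider than 1 bin was higher among the members than in the rest of each list. Of the members, 12 of 30 (40%), 12 of 24 (50%) and 9 of 25 (36.0%) were wider than 1 bin, against 24.5%, 23.0% and 21.6% of the full lists. Compared with the rest of each list, the share was higher by 19.1 percentage points ± 7.03 (SD, n = 3) and higher in 3 of 3 libraries. An exact two-sided sign-flip permutation test over the 3 libraries gave p = 0.25, the smallest that 3 pairs allow, so this design cannot pass a threshold of 0.05. No other test was made here. Width also bears on whether peaks overlap, and hence on the choice of the stretch. Nothing is therefore read from the test or from the same direction in 3 of 3 libraries. The widest members were 260, 260 and 220 nt, and the widest peaks of the full lists 460, 380 and 340 nt.

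Peaks were closely spaced, which follows in part from how the cluster was bounded. Regions were chained only over gaps of up to 200 nt, so no gap between merged regions could be longer. The spacing is a description and was not tested. Between neighbouring members of a list the median gap was 20 nt in replicates 1 and 2 and 40 nt in replicate 3. Of these gaps, 15 of 29, 13 of 23 and 11 of 24 were a single bin. The longest was 240 nt in replicate 1, 420 nt in replicate 2 and 320 nt in replicate 3. Between the merged regions, 16 of 31 gaps were 20 nt, 5 were 100 nt or more, and the longest was 160 nt. That longest gap, at nt 1481 to 1640 (chr2:29676801-29676960), lay directly 5′ of the dense stretch.

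The edges of the cluster were unlike each other. On its 5′ side the next region lay 220 nt away, just beyond the 200 nt over which regions had been chained, at chr2:29678661-29678680. It scored 41 in replicate 1 and 27 in replicate 2 and was missing from the list of replicate 3. Shared regions followed at chr2:29679461-29679500, with scores of 50, 31 and 21, and at chr2:29679601-29679640, with 82, 65 and 29. Within 10 kb on this side there were 6 regions on the minus strand, 2 of them shared, and within 100 kb there were 8. On the 3′ side there was none within 100 kb, and the nearest minus-strand region lay 616160 nt away. The dense stretch stood close to the 3′ limit of all minus-strand peaks in this part of the chromosome.

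Among the 7 nuclear clusters with at least 10 shared regions, 3 had more shared regions than this one. The pair nearest in span was the chromosome 20 plus-strand cluster (chr20:42969121-42971680, 2560 nt), with 13 shared of 30 regions, and the chromosome 1 plus-strand cluster (chr1:264068861-264072400, 3540 nt), with 30 of 41. Peaks covered 34.4% ± 6.81 of the former and 57.3% ± 4.16 of the latter (SD, n = 3 each), against 45.0% ± 6.40 here. The chromosome 2 cluster was covered more than that of chromosome 20 in 3 of 3 libraries, by 10.6 percentage points ± 2.13, and less than that of chromosome 1 in 3 of 3, with a difference of -12.3 ± 3.94. Peaks per kb were 8.84 ± 1.08 here and 8.59 ± 1.03 in the chromosome 20 cluster, a difference of 0.243 ± 1.81 that changed sign between libraries. The chromosome 1 cluster had 11.1 ± 0.326 peaks per kb, and the difference of -2.27 ± 0.910 was negative in 3 of 3 libraries. The share of members wider than 1 bin, 42.0% ± 7.21 here, was 51.6% ± 9.02 and 46.7% ± 5.77 in the chromosome 20 and chromosome 1 clusters. The score percentile of the median member was 69.9 ± 4.33 here. It was 61.8 ± 11.6 in the chromosome 20 cluster and 82.5 ± 4.97 in the chromosome 1 cluster (mean ± SD, n = 3 each). All 3 clusters were chosen from these lists for their shared regions, so these differences are a description and were not tested.

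**Figure D4:**
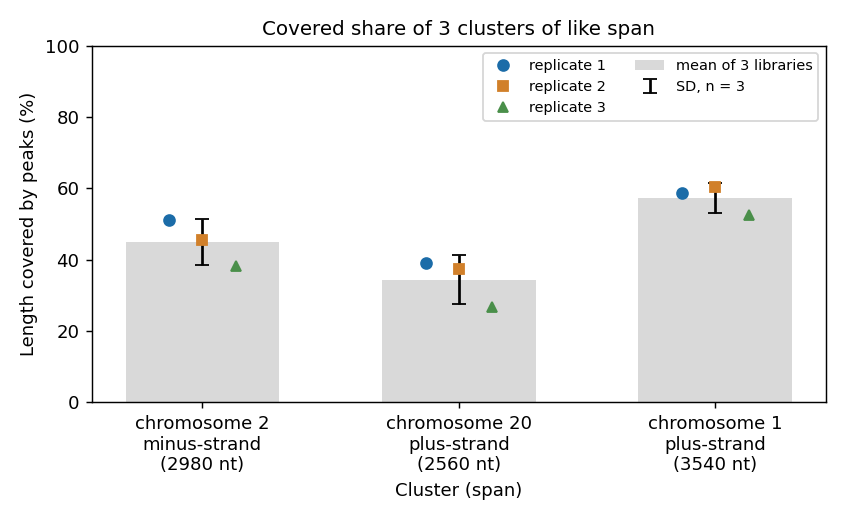
Percentage of the length covered by peaks (vertical axis) in the chromosome 2 cluster and the pair of clusters nearest to it in span (horizontal axis). Grey bars are means of 3 libraries with the SD, and symbols are single libraries; in each library the chromosome 2 cluster, at 38.3% to 51.0%, lies between the other clusters.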

How the data were processed

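Per the submitters' processing notes, STAR and the rat build rn6 were used. Per the names of the deposited lists, Piranha called peaks in 20-nt bins, in 1 list per library. Versions, threshold, duplicate handling and any use of the IgG libraries are not stated in these sources. The authors deposited a whole-number score per peak, whose meaning no label gives. The other numeric column, deposited as 0 in every row, was not used. A single entry with its end before its start was left out. Positions are 1-based.

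Overlapping peaks (at least 1 bp, same strand) were merged into regions, and regions up to 200 nt apart were chained. The chained cluster has the bounds of the membership rule. Ties in score took their mean percentile. Regions named were the 10 shared ones with the highest mean percentile, the widest, the first and last, and the nearest outside peaks; the 3 regions whose ranks differ most and the dense stretch were chosen after their values were seen. The members and all tests were chosen with earlier results of these data known. The exact sign-flip permutation test over libraries was two-sided. The planned sequence, annotation and gene analyses were not run for lack of rn6 references. Alternatives were other overlap rules, gaps, score thresholds and list lengths, and each replicate left out. Merging was tested on simulated data. Python 3.11.15, numpy 2.4.6, pandas 2.3.3 and scipy 1.17.1 were used.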

Additional observations from a re-analysis of the deposited data

How the results depend on the processing

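The 17 shared of 32 regions became 12 of 44 with a reciprocal overlap of 50% and 15 of 25 with lists of equal length. Shared regions were 9 of 22 when a score had to reach 1.5 times the minimum of its list. With identical coordinates there were 7. Joining peaks up to 20 nt apart gave 14 regions, 9 of them in at least 2 libraries and 8 in all 3, since neighbours one bin apart then merge. Identical coordinates gave 52 regions. The stricter score left 16.7 peaks per library and 1113 nt covered, against 26.3 and 1340, and equal list length left 21.7 peaks, since fewer peaks enter. With a replicate left out, shared regions numbered 18 to 21, regions in at least 2 libraries 18 to 21, regions 27 to 31, peaks per library 24.5 to 27.5, covered length 1250 to 1440 nt and the share of occupied bins in common 68.4% to 77.8%, which then asks for agreement of 2 libraries only. The width difference was 15 to 21.4 percentage points (exact p = 0.5 each, the smallest for 2 pairs). With gaps of at most 100 nt the cluster fell into 4 pieces, the longest 1340 nt with 9 shared regions and holding the dense stretch; gaps of at most 1 kb extended it to 4180 nt with 19. No paired analysis was possible because pairing SYNCRIP with IgG by replicate number needs values of both groups, and IgG values were not at hand. This holds for SYNCRIP against IgG only. The sign-flip test is paired, and sets the cluster against the rest of the list within each library. Sequencing depth is unknown, so a missing peak is not shown to be missing contact.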
